A study of Mus musculus with 63 samples.

Results

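The genes described here are 9 interferon-stimulated genes, namely Ifit1, Ifit3, Isg15, Irf7, Oasl2, Bst2, Ifitm3, Usp18 and Rsad2, read from the count tables by their symbols. All 9 were found among the 55291 genes of the tables, and each had at least 1 count in every one of the 63 libraries. The libraries came from mouse organotypic entorhino-hippocampal tissue cultures, prepared at postnatal days 3 to 5 from mice of either sex and matured for at least 18 days in vitro. Wildtype cultures were from C57BL/6J mice (Synpo+/+), and synaptopodin-deficient cultures were from B6.129-Synpotm1Mndl/Dllr mice (Synpo-/-), a constitutive mutant line bred onto the C57BL/6J background. Entorhinal cortex lesion (ECL) cuts the perforant path and so takes the entorhinal input away from the dentate gyrus (DG) and CA3. For the regional libraries 1 DG or 1 CA3 isolate of a single culture was sequenced, 3 days after the lesion or without lesion. They comprised 4 control and 7 lesioned DG libraries and 2 control and 3 lesioned CA3 libraries of Synpo+/+, and 7 control and 4 lesioned DG libraries and 6 control and 6 lesioned CA3 libraries labelled Synpo-/-. The other 24 libraries came from lysates of pooled whole cultures, 6 per lysate by the study's methods and 5 to 6 by its figure legend. They were sequenced as precleared lysate (input) or as RNA bound by an anti-synaptopodin antibody (Synpo-coIP). They held 5 control and 5 lesioned Synpo+/+ lysates in each fraction, and 2 lysates labelled synaptopodin-deficient whose lesion status the labels do not give.

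Type I interferons bind a receptor that activates the kinases Jak1 and Tyk2. Transcription factors downstream of them, which include Stat2 and Irf9, enter the nucleus, bind interferon-stimulated response elements and switch on a large set of antiviral genes. In brain tissue microglia and astrocytes both carry this response, and its level is often used as a readout of interferon tone in injury and infection. The 9 genes have different roles. Irf7 is the transcription factor that amplifies interferon production. Isg15 is a ubiquitin-like modifier, and Usp18 is the protease that removes it and also damps signalling at the receptor. Ifit1 and Ifit3 belong to a family that binds foreign RNA, Oasl2 is an oligoadenylate synthetase-like protein, and Rsad2 (viperin) makes a nucleotide that stops viral polymerases. Bst2 (tetherin) and Ifitm3 are membrane proteins that hold budding virus at the cell surface and block entry from endosomes.

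Total counts lay between 14055930 and 46043990 in the 39 regional libraries and between 11601154 and 53682143 in the 24 lysate libraries, and levels are given as CPM, read counts scaled to the library total, after TMM normalization within each of these 2 experiments. Lesioned DG replicate 5 of Synpo+/+ carried 15.5 CPM of Prox1, a granule cell transcription factor, against 169.6 to 217 CPM in the other 6 libraries of its group and 12.7 to 17.2 CPM in lesioned Synpo+/+ CA3. It therefore goes against its label. Leaving it out moved the calls of the lesion comparison in Synpo+/+ DG, given there, and left 0 calls among the 9 genes in every other comparison that held it. Regional replicates were separate cultures, and since the sources used here do not say how many animals gave them, p-values measure the spread between cultures. Synpo itself was not lower in regional libraries labelled Synpo-/-. Its mean was 51.8 ± 9.31 CPM (SD, n = 7) in control DG labelled Synpo-/- and 22.5 ± 2.36 CPM (SD, n = 4) in Synpo+/+ control DG, so every genotype named below rests on the labels. Xist counts exceeded those of 4 Y-linked genes in 4 of 4 Synpo+/+ control DG libraries and in 4 of 7 lesioned ones, so the sexes of the cultures were not balanced between groups.

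The 9 genes lie on 7 chromosomes of GRCm38, all as protein-coding genes. Ifit3 (ENSMUSG00000074896.3, chr19:34583531-34588731) and Ifit1 (ENSMUSG00000034459.8, chr19:34640871-34650009) are close neighbours on the plus strand. Ifitm3 (ENSMUSG00000025492.6, chr7:141009586-141010770) and Irf7 (ENSMUSG00000025498.15, chr7:141262706-141266481) share a stretch of chromosome 7 on the minus strand. Isg15 (ENSMUSG00000035692.7, chr4:156199455-156200796), Bst2 (ENSMUSG00000046718.8, chr8:71534255-71537456) and Rsad2 (ENSMUSG00000020641.16, chr12:26442746-26456452) are also on minus strands, and Oasl2 (ENSMUSG00000029561.17, chr5:114896936-114912234) and Usp18 (ENSMUSG00000030107.10, chr6:121245906-121270917) on plus strands. Reads were counted without regard to strand, so Irf7, which overlaps Phrf1 on the other strand, and Usp18, which overlaps the noncoding Gm44148, are less certain than the rest. Ifit3 has the near-identical copy Ifit3b, and the split of reads between them is uncertain too.

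Promoters of the genes are shown where they hold the core letters of an interferon-stimulated response element. A link between the motif and the changes described below was not tested. Promoter windows ran from 250 bases before to 50 bases after the RefSeq start in GRCm38.p6, and 8 of the 9 genes had one (Usp18 had none). The motif of 2 blocks of the letters GAAA with any 2 bases between them, searched on both strands with overlapping matches allowed, was found in 6 of these 8 windows (75%), in 36.7% of the 49 windows of 58 other interferon-stimulated genes (40 genes matched) and in 3.44% of all 32851 windows. The motif TTCNNNGAA, the core of a gamma-activated site, was found in 2 of the 8 windows, those of Bst2 and Ifitm3, and in 8.3% of all windows. The stretches below run 5′ to 3′ on the strand of the gene, with up to 20 bases on either side of the matches, and capitals mark the matches to this motif or, read as TTTC blocks, to its reverse complement.
Isg15 (minus strand, chr4:156200855-156200916): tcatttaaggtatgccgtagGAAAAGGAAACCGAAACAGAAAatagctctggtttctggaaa
Bst2 (minus strand, chr8:71537567-71537622): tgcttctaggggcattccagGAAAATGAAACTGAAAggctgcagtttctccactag
Ifit1 (plus strand, chr19:34640765-34640833): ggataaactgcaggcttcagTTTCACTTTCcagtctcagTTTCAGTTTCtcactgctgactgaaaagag
Ifit3 (plus strand, chr19:34583353-34583436): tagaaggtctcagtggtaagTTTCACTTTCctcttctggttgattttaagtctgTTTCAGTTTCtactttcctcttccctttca
Rsad2 (minus strand, chr12:26456543-26456592): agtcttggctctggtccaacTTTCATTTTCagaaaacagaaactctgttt

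Isg15 held 3 overlapping matches, the first starting 78 bases before the start, and Bst2 held 2 overlapping matches starting 130 and 124 bases before it. Ifit1 and Ifit3 each held 2 separate matches in reverse orientation, and Rsad2 held 1. In Ifitm3 both matches lay 3 and 20 bases after the start and are not printed. The windows of Irf7 and Oasl2 held none of these letters. A match is a description of the sequence and no measure of binding.

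Levels per kilobase of exon set the genes apart. Over the 39 regional libraries Ifitm3 had the highest median, 326 CPM per kb (range 139.9 to 539), and Ifit3 followed with 61.0 (range 23.7 to 165). Bst2 with a median of 14.6 CPM per kb and Ifit1 with 10.9 came next, and their ranges overlapped. Oasl2, Rsad2, Usp18 and Isg15, with medians of 2.98, 2.94, 2.86 and 2.48 CPM per kb, could not be ordered within their spread. Irf7 was lowest at 0.776 CPM per kb. The low genes rest on few reads. Isg15 had from 5 counts in a library and Irf7 from 22, whereas Ifitm3 had at least 584. The span between libraries was widest for Isg15, whose highest regional CPM was 19.1 times its lowest, and narrowest for Bst2 and Ifitm3, at 3.84 and 3.85 times.

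**Figure D1:**
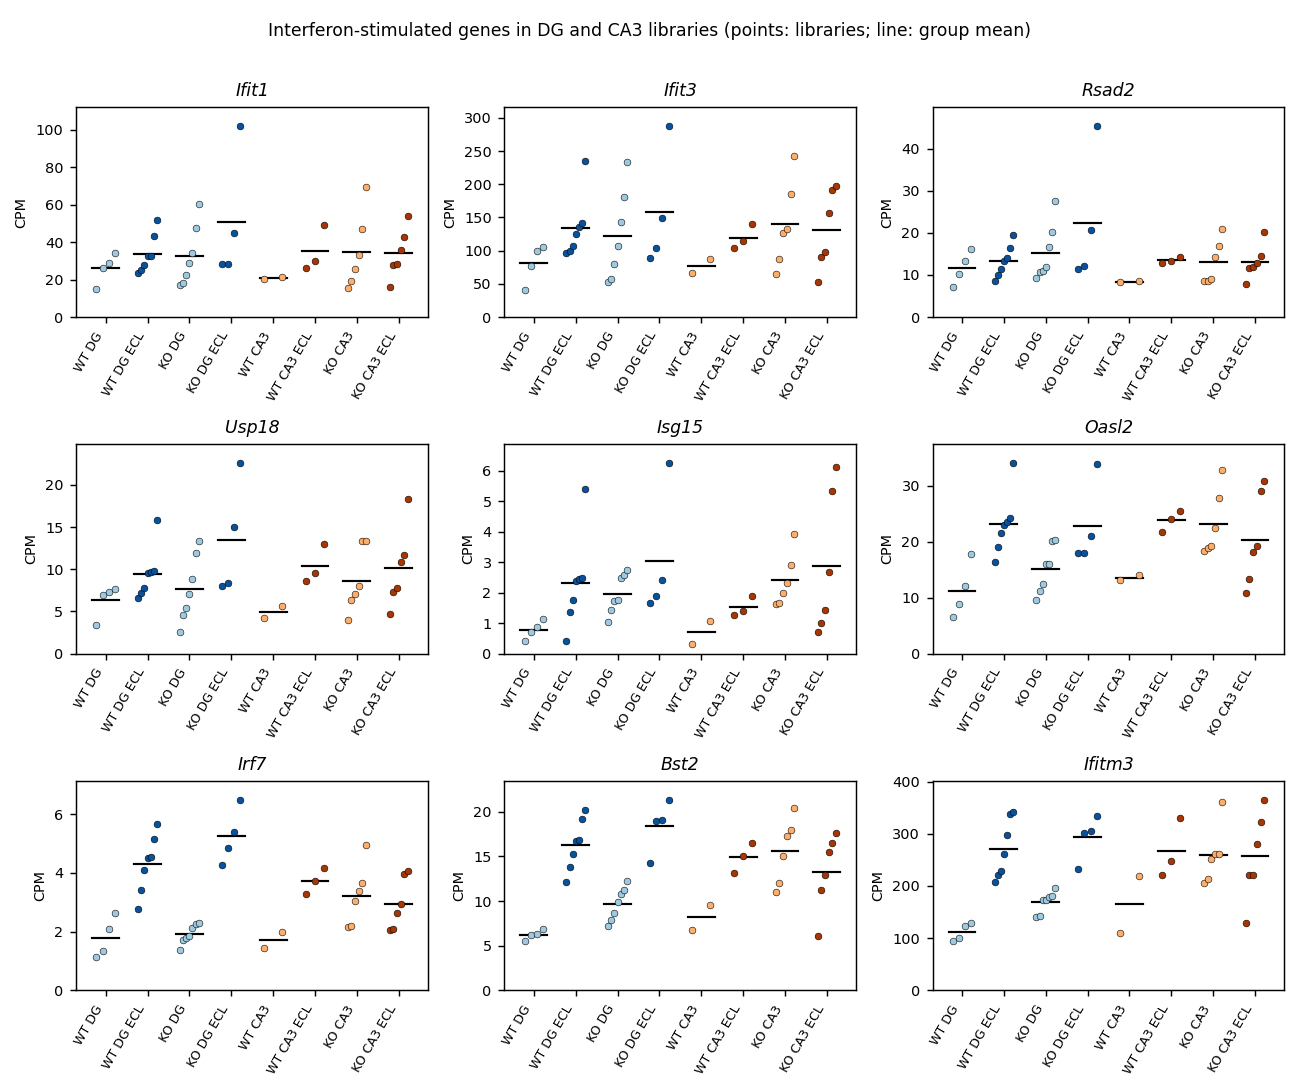
CPM (linear axis from 0) of each of the 9 genes in the 8 regional groups, with 1 point per library and a line at the group mean. WT stands for Synpo+/+ and KO for libraries labelled Synpo-/-. Irf7, Bst2 and Ifitm3 in lesioned DG lie above all control DG libraries of the same genotype label, while in CA3 labelled KO the control and lesioned points overlap for all 9 genes.

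The 9 genes did not vary as a single block. Ifit1, Ifit3 and Usp18 followed each other most closely. Pearson's r of log2 CPM over the 39 regional libraries was 0.934 for Ifit1 with Ifit3 and 0.925 for Ifit1 with Usp18, and Bst2 with Ifitm3 reached 0.894. The lowest of the 36 pairs was Ifitm3 with Rsad2 at 0.320. After each library's deviation from its group mean was taken, Ifit1 and Usp18 still gave 0.931, while Bst2 and Irf7 went from 0.842 to 0.610. The likeness of Ifit1, Ifit3 and Usp18 was thus also seen between replicates of the same group, and that of Bst2 with Irf7 was lower once the group means were taken away. Single libraries stood at the ends for several genes, since control DG replicate 3 of Synpo+/+ had the lowest regional CPM of 6 of the 9 genes and lesioned DG replicate 3 labelled Synpo-/- the highest of 4, namely Ifit1, Ifit3, Usp18 and Rsad2. The 2 values of a pair come from the same library and so share its depth and dissection, and the correlations are given as a description.

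**Figure D2:**
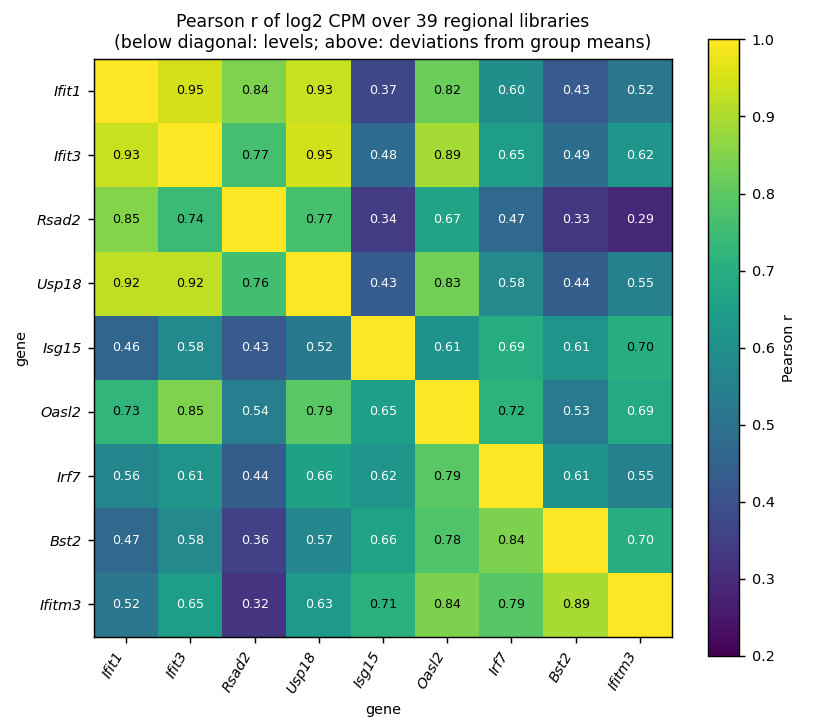
Pearson's r of log2 CPM (pseudocount 0.5) between the genes over 39 regional libraries, with levels below the diagonal and deviations from group means above it. Ifit1, Ifit3 and Usp18 have the highest values on both sides, up to 0.948 for Ifit1 with Ifit3, and Rsad2 with Ifitm3 the lowest.

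In the denervated dentate gyrus of Synpo+/+ cultures 5 of the 9 genes rose. Bst2, Ifitm3, Irf7, Oasl2 and Isg15 passed the test (edgeR quasi-likelihood test, Benjamini-Hochberg adjusted p under 0.05), against 7.86% of all genes tested that rose, and all 9 had higher means after the lesion. The median log2 fold change of the 9 was 1.00, beside -0.0030 for all 23720 genes tested. In 3 of the 9 genes every lesioned library lay above every control, which held for 7.71% of all genes.

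Among the membrane proteins, Bst2 had 5.57, 6.19, 6.35 and 6.83 CPM in the 4 control DG libraries and 12.2 to 20.1 CPM (median 16.7) in the 7 lesioned ones. The groups did not overlap, and the fitted level was 2.56-fold higher (log2 fold change 1.36 ± 0.14 (SE), adjusted p = 6.42e-05). Ifitm3 went from 94.8, 101.1, 123 and 129.8 CPM in controls to 208 to 343 CPM (median 261) after the lesion, again without overlap (log2 fold change 1.24 ± 0.16 (SE), adjusted p = 0.000293). The transcription factor Irf7 had 1.13, 1.32, 2.08 and 2.63 CPM in controls and 2.77 to 5.66 CPM (median 4.52) in lesioned DG. Its lowest lesioned library was only just above its highest control (log2 fold change 1.23 ± 0.25 (SE), adjusted p = 0.00828).

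The modifier Isg15 had 0.425, 0.721, 0.862 and 1.14 CPM in controls and 0.415 to 5.40 CPM (median 2.39) after the lesion. Lesioned replicate 3 was as low as the lowest control, so the groups overlapped, and the call was marginal (log2 fold change 1.54 ± 0.48 (SE), adjusted p = 0.0482). Oasl2 had 6.51, 8.83, 12.0 and 17.8 CPM in controls and 16.4 to 34.1 CPM (median 23.0) in lesioned DG, with 1 control above the lowest lesioned library (log2 fold change 1.00 ± 0.24 (SE), adjusted p = 0.0161). The RNA-binding Ifit genes, Usp18 and Rsad2 did not pass the test. Ifit3 had an adjusted p of 0.0768, Usp18 of 0.132, Ifit1 of 0.297 and Rsad2 of 0.654. Rsad2 had the smallest difference, from 7.03, 10.2, 13.3 and 16.2 CPM to 8.57 to 19.4 CPM (median 13.3).

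Without lesioned replicate 5, the library with the Prox1 level of CA3, 6 genes were called in Synpo+/+ DG, with Ifit3 added at an adjusted p of 0.0433. Isg15 lost its call without any one of the 4 controls or without lesioned replicate 1, 4, 6 or 7 (highest adjusted p 0.131), and Oasl2 without control replicate 2 or 3 (highest 0.0628), which left 3 called genes. Isg15 also missed the threshold with RLE size factors (adjusted p = 0.0522) and with the gene length trend removed (adjusted p = 0.0703).

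Other genes of the pathway rose in part in Synpo+/+ DG. Of 58 further interferon-stimulated genes, 24 rose and none fell, with a median log2 fold change of 0.58. This list and those used below were chosen with earlier results of these data known. Examples are Lgals9, a galectin (log2 1.55 ± 0.22, adjusted p = 0.000614), the secreted glycoprotein Lgals3bp (log2 0.97 ± 0.13, adjusted p = 0.000595) and the immunoproteasome subunit Psmb8 (log2 0.93 ± 0.14, adjusted p = 0.000889). Of 17 receptor and signalling genes 4 rose. These were the receptor subunits Ifngr1 (log2 0.73 ± 0.13, adjusted p = 0.00268) and Ifnar2 (log2 0.69 ± 0.18, adjusted p = 0.0245) and the transcription factors Irf8 (log2 0.65 ± 0.13, adjusted p = 0.00585) and Irf9 (log2 0.69 ± 0.16, adjusted p = 0.0131). Of 13 tested nucleic acid sensors and adaptors 3 rose, namely Tlr7, which senses single-stranded RNA (log2 0.70 ± 0.14, adjusted p = 0.00673), the adaptor Sting1 (log2 1.24 ± 0.26, adjusted p = 0.00822) and the adaptor Myd88 (log2 0.84 ± 0.19, adjusted p = 0.0125). The interferons themselves were hardly read. None of 11 ligand genes passed the filter on low counts, their summed level stayed at or under 1.92 CPM in every DG library, and no ligand exceeded 26 counts in any library, so a change in the ligands was not detectable at this depth.

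**Figure D3:**
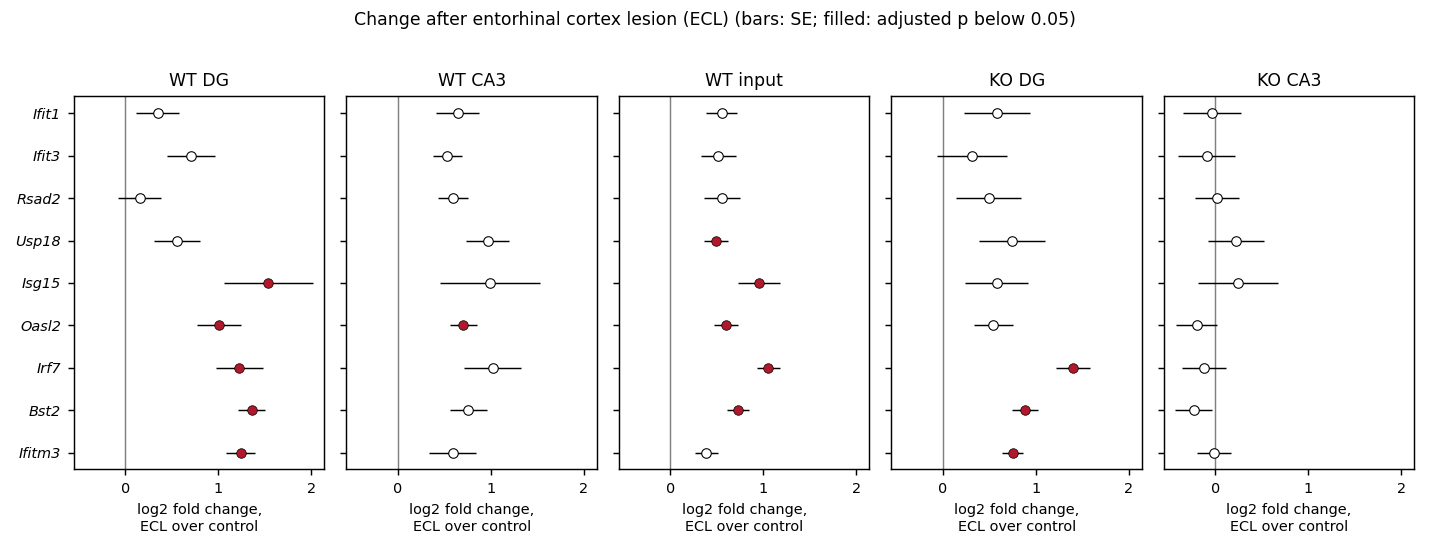
Fitted log2 fold change (x axis, ECL over control) of each gene in 5 comparisons, with bars for the SE and filled points where the adjusted p was under 0.05. All points lie right of 0 in Synpo+/+ DG, CA3 and input and in DG labelled Synpo-/-, whereas in CA3 labelled Synpo-/- they lie around 0.

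In Synpo+/+ CA3 the same direction was seen on less material. All 9 genes had higher values in each of the 3 lesioned libraries than in both controls, a pattern found in 30.3% of all genes with groups of this size. Oasl2, at 13.2 and 14.01 CPM in controls and 21.8, 24.2 and 25.5 CPM after the lesion, was called (log2 fold change 0.70 ± 0.14 (SE), adjusted p = 0.0434), against 1.5% of all genes that rose. Irf7 was at 1.44 and 1.97 CPM and 3.30, 3.72 and 4.17 CPM (log2 fold change 1.02 ± 0.31 (SE), adjusted p = 0.0956). Ifit1 and Ifit3, at 26.3, 29.9 and 49.4 CPM and 104, 115 and 140.0 CPM after the lesion, were at 20.2 and 21.6 CPM and 66.2 and 87.4 CPM in controls. The median log2 fold change of the 9 genes was 0.70, beside -0.01 for all genes tested, and 8 of the 9 had an unadjusted p under 0.05, as did 23.9% of all genes. The Oasl2 call was lost without any single one of the 5 libraries (adjusted p 0.0535 to 0.158), while without control replicate 2 Bst2 and Ifitm3 were called. The number of calls was 4 in DESeq2 and 7 without the filter on low counts. The share of all genes called in these fits is not given, and the 1.5% above is from edgeR with the filter. Of the 58 further interferon-stimulated genes only Lgals9 was called (log2 0.99 ± 0.17, adjusted p = 0.0309), and of the signalling genes only Ifnar2 (log2 0.94 ± 0.18, adjusted p = 0.0409).

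Whole-culture input of Synpo+/+ gave an independent set of lesioned and control lysates, for which the sources used here do not give the time after the lesion. Here 5 of the 9 genes rose, against 2.45% of all genes, and all 9 had an unadjusted p under 0.05, as did 19.5% of all genes. Irf7 had 6.29, 7.92, 8.45, 8.71 and 9.27 CPM in control inputs and 15.9, 15.9, 16.1, 18.0 and 19.0 CPM in lesioned ones. The groups were far apart, at a 2.08-fold higher level (log2 fold change 1.06 ± 0.12 (SE), adjusted p = 0.000437). Bst2, with 15.8, 18.3, 20.2, 20.9 and 21.2 CPM and 24.3, 30.2, 34.7, 34.9 and 36.4 CPM, did not overlap either (log2 fold change 0.73 ± 0.12 (SE), adjusted p = 0.00420). All lesioned above all controls was seen in these 2 genes and in 3.27% of all genes.

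Isg15 in input went from 5.53, 7.55, 8.61, 8.89 and 12.2 CPM to 9.99, 14.03, 16.8, 19.7 and 22.7 CPM, with a control above the lowest lesioned library (log2 fold change 0.95 ± 0.22 (SE), adjusted p = 0.0243). Oasl2 (log2 fold change 0.60 ± 0.13 (SE), adjusted p = 0.0183) and Usp18 (0.49 ± 0.12 (SE), adjusted p = 0.0348) were also called, and Ifitm3 had the smallest difference of the 9, at 0.39 ± 0.13 (SE) (adjusted p = 0.0954). Ifitm3 was thus among the largest changes in dissected DG and the smallest in whole cultures; that contrast between experiments was not tested. The number of calls went to 2 without control replicate 2, to 3 without control replicate 3 or lesioned replicate 2, and to 7 without lesioned replicate 4, and Irf7 and Bst2 were called in each of these fits. Usp18 also lost its call without control or lesioned replicate 1 (highest adjusted p over single removals 0.102). Of the 58 further interferon-stimulated genes 19 rose in input, among them the chemokine Ccl5 (log2 1.30 ± 0.22, adjusted p = 0.00453) and Ifit2 (log2 0.60 ± 0.11, adjusted p = 0.00807), and Irf9 (log2 0.54 ± 0.10, adjusted p = 0.00725) rose among the signalling genes.

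In DG labelled Synpo-/- the lesion raised Irf7, Bst2 and Ifitm3, 3 of the 9 genes against 5.17% of all genes, and all 9 had higher means. Irf7 lay at 1.38 to 2.30 CPM (median 1.85) in the 7 controls and at 4.27, 4.85, 5.39 and 6.49 CPM in the 4 lesioned libraries. This was the largest change of the 9, 2.64-fold, with a wide gap between the groups (log2 fold change 1.40 ± 0.18 (SE), adjusted p = 0.000187). Bst2 went from 7.24 to 12.2 CPM (median 9.90) to 14.3, 19.0, 19.1 and 21.4 CPM (log2 fold change 0.88 ± 0.14 (SE), adjusted p = 0.00105) and Ifitm3 from 139.5 to 197 CPM (median 173) to 231, 302, 306 and 334 CPM (log2 fold change 0.75 ± 0.11 (SE), adjusted p = 0.000701). In these 3 genes no lesioned library overlapped a control, as in 5.42% of all genes, and the 3 calls held without any single library.

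The remaining 6 genes overlapped in DG labelled Synpo-/-, and none of them was called. Ifit1 reached 28.4, 28.5, 44.6 and 102 CPM in the lesioned libraries, the highest of them replicate 3, beside 17.03 to 60.2 CPM (median 29.1) in controls (adjusted p = 0.389). Rsad2 and Usp18 were highest in the same lesioned replicate 3, at 45.3 and 22.6 CPM, whereas Isg15 was highest in lesioned replicate 1, at 6.26 CPM. Of the 58 further interferon-stimulated genes 15 rose, with Lgals3bp (log2 0.82 ± 0.13, adjusted p = 0.000732) and Lgals9 (log2 0.86 ± 0.17, adjusted p = 0.00404) again among those of smallest p, and Irf9, Ifnar2 and Irf8 rose among the 17 signalling genes. The sensors and adaptors that rose were Tlr7, Sting1 and Mavs, 3 of 13.

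CA3 labelled Synpo-/- showed no change that passed the test. None of the 9 genes was called by edgeR, none had an unadjusted p under 0.05 (7.27% of all genes did), DESeq2 called none, and 0.053% of all genes rose by the same test. Irf7 had 2.14 to 4.95 CPM (median 3.21) in the 6 controls and 2.07 to 4.08 CPM (median 2.78) in the 6 lesioned libraries, and Bst2 had 11.03 to 20.4 CPM (median 16.1) and 6.06 to 17.6 CPM (median 14.2). In both genes the groups overlapped over most of their range. The fitted log2 fold changes ran from -0.23 to 0.24 with 3 of 9 above 0 and SEs of 0.19 to 0.43. Isg15 spread most among lesioned libraries, at 0.725 to 6.11 CPM (median 2.04). None of the 57 further interferon-stimulated genes tested, of the 16 signalling genes or of the 13 sensors and adaptors was called, and the 57 had a median log2 fold change of 0.06.

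The lesion effects were then compared with each other. Between the regions labelled Synpo-/- the effect was larger in DG for all 9 genes, and the difference passed the test for Irf7 (difference of log2 fold changes 1.501 ± 0.31 (SE), adjusted p = 0.0133) and Bst2 (1.09 ± 0.28 (SE), adjusted p = 0.0452), as it did, in this direction, for 0.877% of all genes. The Irf7 difference was called without any single one of the 23 libraries. That of Bst2 was called only without CA3 control replicate 4 or 6, CA3 lesioned replicate 1, 2, 3 or 6, DG control replicate 2 or 5 or DG lesioned replicate 2, and lost with each of the other 14 libraries left out (highest adjusted p 0.108). Among the list genes Lgals3bp (log2 1.13 ± 0.24, adjusted p = 0.0151) and Irf8 (log2 0.94 ± 0.23, adjusted p = 0.0349) differed as well. In Synpo+/+ no gene of the 9 differed between the regions. EdgeR and DESeq2 called none, and 1 had an unadjusted p under 0.05, while no gene at all was called (0%) and 4.46% had an unadjusted p under 0.05.

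Between genotypes, the lesion effect in CA3 was lower with the Synpo-/- label for all 9 genes, with differences of -0.61 to -1.18 on the log2 scale, beside a median of 0.06 for all genes. None of these differences passed the test. The smallest adjusted p values were 0.199 for Irf7 and 0.2001 for Bst2, 3 of 9 genes had an unadjusted p under 0.05 (17.1% of all genes did), and edgeR and DESeq2 called none of the 9 and edgeR none of all 26821 genes (0%). In DG the differences had both signs, 2 of 9 had an unadjusted p under 0.05 (10.4% of all genes), and edgeR and DESeq2 again called none, while edgeR called 0.00381% of all genes. A lesion effect that differs with the genotype label was therefore not shown, although the lesion passed the test in Synpo+/+ CA3 for Oasl2 and in the other label for none.

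Levels in control cultures bear on these contrasts, because the same control libraries enter both. All 9 genes had higher means in controls labelled Synpo-/- than in Synpo+/+ controls, in DG (median log2 difference 0.39, all genes -0.02) and in CA3 (median 0.75, all genes -0.02). No gene of the 9 passed the edgeR test in either region, where 0.0124% and 0.00413% of all genes were called higher. In DG 3 of 9 had an unadjusted p under 0.05 (15.5% of all genes) and DESeq2 called Bst2, Ifitm3 and Isg15. In CA3 6 of 9 had an unadjusted p under 0.05 (16.4% of all genes) and DESeq2 called Bst2 and Oasl2. All shares given here are those of edgeR. The share of all genes called by DESeq2 is not given, so its calls in both regions have no background beside them. Isg15 in control DG had 1.04 to 2.75 CPM (median 1.75) in the 7 libraries labelled Synpo-/- and 0.425, 0.721, 0.862 and 1.14 CPM in the 4 Synpo+/+ libraries (log2 difference 1.27 ± 0.34 (SE), adjusted p = 0.207). In control DG Bst2 and Ifitm3 did not overlap between the labels, as 1.09% of all genes did not in that direction, whereas Irf7 was alike in level, at 1.38 to 2.30 CPM (median 1.85) and 1.13, 1.32, 2.08 and 2.63 CPM. In control CA3 all 6 libraries labelled Synpo-/- lay above both Synpo+/+ libraries for Isg15, Irf7, Oasl2, Bst2 and Rsad2, as for 11.8% of all genes. The number of calls in control DG went to 2 without control replicate 4 labelled Synpo-/-, and no other single library left out gave a call in either region.

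After the lesion no difference between the labels was called. In lesioned DG 8 of 9 genes and in lesioned CA3 5 of 9 had a higher fitted level with the Synpo-/- label, edgeR and DESeq2 called none in either region, and 1 gene in DG (Rsad2) and none in CA3 had an unadjusted p under 0.05, against 3.56% and 6.16% of all genes. EdgeR called 0.0166% of all genes in DG and 0.00891% in CA3, in either direction.

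In cultures labelled Synpo-/- some of the 9 genes differed between DG and CA3, and Irf7 did so in opposite directions in control and in lesioned cultures. In controls Bst2, Ifitm3, Irf7 and Oasl2 were lower in DG than in CA3, 4 of 9 genes against 12.5% of all genes. Ifitm3 showed no overlap, with 139.5 to 197 CPM (median 173) in DG and 205 to 361 CPM (median 256) in CA3 (log2 difference -0.51 ± 0.11 (SE), adjusted p = 0.00219). This was 1 of the 9 genes, and 6.96% of all genes showed it. Irf7 in control DG and CA3 differed by -0.64 ± 0.21 (SE) (adjusted p = 0.0291) and in lesioned DG and CA3 by 0.84 ± 0.22 (SE) (adjusted p = 0.0179). In lesioned cultures this was the only gene of the 9 called (7.37% of all genes were called higher), with no overlap between DG and CA3, as in 7.04% of all genes. The control calls of Irf7 and Oasl2 were lost without CA3 control replicate 1 or 3 or DG control replicate 1, which left 2 calls, and the lesioned call of Irf7 without DG lesioned replicate 1 (adjusted p = 0.0751). Irf7 was also lost without CA3 control replicate 5, and Oasl2 without CA3 control replicate 2 or DG control replicate 4, 5 or 7. In Synpo+/+ the regions did not differ by edgeR or DESeq2, with 1 gene of the 9 in controls and none in lesioned cultures at an unadjusted p under 0.05, against 17.6% and 19.6% of all genes, and edgeR called 5.39% and 2.05% of all genes. Ifitm3 was called in controls without CA3 control replicate 1. Over the 8 regional groups the mean Irf7 level ran from 1.70 ± 0.378 CPM (SD, n = 2) in Synpo+/+ control CA3 to 5.25 ± 0.948 CPM (SD, n = 4) in lesioned DG labelled Synpo-/-. The 3 lowest groups, control CA3 and DG of Synpo+/+ and control DG labelled Synpo-/-, lay within each other's SD.

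Markers of several cell types also changed after the lesion, though not all in the groups or the direction of the 9 genes. Of 14 microglia markers 14 rose in lesioned Synpo+/+ DG (median log2 fold change 1.17), 2 in Synpo+/+ CA3, 11 in DG labelled Synpo-/-, none in CA3 labelled Synpo-/- (median -0.14) and 6 in Synpo+/+ input, where the summed level was 1046 to 1661 CPM in control and 1467 to 2407 CPM in lesioned lysates. In the regional libraries it was 576 to 772 CPM in control and 1428 to 1765 CPM in lesioned Synpo+/+ DG, 694 to 1427 and 1495 to 1983 CPM in DG labelled Synpo-/-, 607 to 1018 and 1215 to 1604 CPM in Synpo+/+ CA3, and 876 to 1795 and 796 to 1362 CPM in CA3 labelled Synpo-/-, with no marker at 0 in any group. In the controls all 14 had a higher fitted level with the Synpo-/- label in both regions, none called. Of 7 astrocyte markers 5 rose in Synpo+/+ DG, 6 in DG labelled Synpo-/-, 1 in input (Gfap, log2 0.51 ± 0.13, adjusted p = 0.0364) and none in CA3 of either label. Of all genes 7.86% rose in Synpo+/+ DG, 1.5% in Synpo+/+ CA3, 5.17% in DG labelled Synpo-/-, 0.053% in CA3 with that label and 2.45% in input. Of 7 oligodendrocyte markers 1, Cnp, rose in DG of each label. In CA3 labelled Synpo-/- Mbp (log2 -0.70 ± 0.10, adjusted p = 0.0108) and Mobp (log2 -0.75 ± 0.13, adjusted p = 0.0249) fell, against 0.0241% of all genes that fell. All 7 had an unadjusted p under 0.05 there (7.27% of all genes did). Their summed level was 1739 to 2785 CPM in control and 1173 to 1611 CPM in lesioned libraries, without overlap. Of 7 endothelial markers Tek and Kdr fell in Synpo+/+ DG, against 4.31% of all genes that fell. The summed level of the 7 was 18.5 to 26.7 CPM in control and 12.3 to 18.2 CPM in lesioned libraries, also without overlap. The difference of lesion effects between DG and CA3 labelled Synpo-/- was called, higher in DG, for 9 of 14 microglia, 4 of 7 astrocyte and 2 of 7 oligodendrocyte markers. It was called in this direction for 0.877% of all genes. The part of these cells in the results was not tested, and more cells of a type and more RNA per cell cannot be told apart in such tissue libraries. The summed level of 10 markers of peripheral leukocytes stayed at or under 6.79 CPM in every regional library and none of them was called in any lesion comparison.

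**Figure D4:**
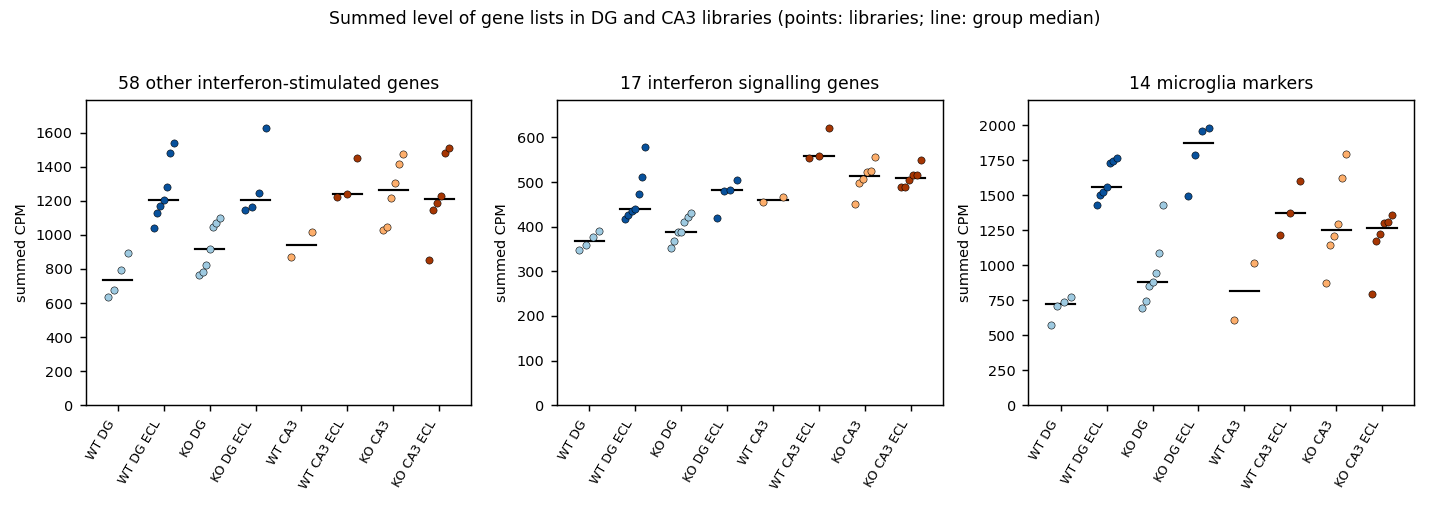
Summed CPM (linear axis from 0) of 3 gene lists in the 8 regional groups, with 1 point per library and a line at the group median. The 14 microglia markers lie above all controls in lesioned DG of both labels, at 1428 to 1765 CPM for Synpo+/+, and overlap with the controls in CA3 labelled KO.

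The genes most like the 9, outside the 9 and the 4 lists of interferon genes, were found by Pearson's r over the 39 regional libraries with the mean of the standardized log2 CPM of the 9 genes, among 17463 genes of at least 1 CPM on average. The 10 highest were H2-T22 (r = 0.884), Gbp7 (0.852), Rnf213 (0.846), Fcgr1 (0.840), Apobec3 (0.835), Phf11b (0.833), Id3 (0.821), C1qb (0.811), Ube2l6 (0.810) and Olfml3 (0.804). H2-T22 is a nonclassical class I gene, Gbp7 a guanylate-binding protein and Ube2l6 the conjugating enzyme for Isg15, while Fcgr1, C1qb and Olfml3 are read mainly in microglia. Over the 10 Synpo+/+ inputs, which the choice did not use, r was highest for H2-T22 (0.961), Gbp7 (0.937) and Ube2l6 (0.927) and lower for C1qb (0.479) and Apobec3 (0.423).

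In the Synpo-coIP the transcripts were on the whole less abundant than in the input of the same lysates. In lesioned Synpo+/+ lysates all 9 had lower fitted levels and 6 were called lower, against 27.8% of all genes, and in control lysates 8 of 9 were lower and 4 called, against 25.5%. Isg15 had 1.85, 3.15, 3.21, 4.10 and 4.98 CPM in control coIP and 5.53, 7.55, 8.61, 8.89 and 12.2 CPM in control input, with no overlap and a 2.42-fold lower level (log2 difference -1.28 ± 0.25 (SE), adjusted p = 0.000497). In lesioned lysates it had 3.62, 4.70, 6.70, 7.91 and 12.0 CPM in coIP against 9.99, 14.03, 16.8, 19.7 and 22.7 CPM in input (log2 difference -1.23 ± 0.28 (SE), adjusted p = 0.00200). Irf7 in lesioned lysates had 8.81, 8.83, 9.39, 10.8 and 11.2 CPM in coIP and 15.9, 15.9, 16.1, 18.0 and 19.0 CPM in input, the only one of the 9 genes with no overlap there, as in 20.3% of all genes (log2 difference -0.77 ± 0.12 (SE), adjusted p = 7.63e-05). In control lysates Isg15, Bst2 and Ifitm3 did not overlap, as did not 19.7% of all genes in that direction.

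Ifit3 stood close to its input level, with log2 differences of 0.10 ± 0.19 (SE) in control and -0.09 ± 0.22 (SE) in lesioned lysates (adjusted p = 0.672 and 0.753). It was the closest of the 9 genes in lesioned lysates, whereas in control lysates Rsad2 (1.03-fold lower) and Usp18 (1.06-fold lower) were closer. Ifit1 was called lower in lesioned lysates (-0.64 ± 0.22 (SE), adjusted p = 0.0220). The lesioned and control input libraries are those of the lesion comparison above. Since coIP and input of a number are from a single lysate, the fit with the lysate as a block applies, and it called 6 genes in control lysates, adding Ifit1 (adjusted p = 0.00179) and Oasl2 (0.0110), and 7 in lesioned ones, adding Usp18 (0.00774). The share of all genes called by the block fit is not given here. The shares and the other coIP values printed here come from the fit without the block, which leaves the pairing out. The Irf7 call in control lysates was lost without input replicate 1, 3, 4 or 5 or coIP replicate 2, 3 or 4 (highest adjusted p 0.0995), and the Ifit1 call in lesioned lysates without input replicate 2 (adjusted p = 0.0623). Microglia markers were called lower in coIP as well, 6 of 14 in control and 9 of 14 in lesioned lysates, while 1 of the 14, the integrin Itgam, was called higher in both (log2 0.79 ± 0.25, adjusted p = 0.0134 in control and log2 0.67 ± 0.19, adjusted p = 0.00848 in lesioned lysates). The summed levels of the 14 were 993 to 1545 CPM in lesioned coIP and 1467 to 2407 CPM in lesioned input. Of the 58 further interferon-stimulated genes 24 were lower and 4 higher in lesioned coIP. Of 16 signalling genes 7 were higher and 2 lower, where 30.5% of all genes were higher and 27.8% lower, with Tyk2 (log2 1.17 ± 0.15, adjusted p = 1.64e-05), Stat2 (log2 0.91 ± 0.18, adjusted p = 0.000598) and Jak1 (log2 0.70 ± 0.08, adjusted p = 1.37e-05) among the higher ones.

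In the 2 lysates labelled synaptopodin-deficient, which give the pull-down without its target by label, Irf7 was called lower in coIP at 3.21 and 3.47 CPM against 5.09 and 7.35 CPM in input (log2 difference -0.93 ± 0.26 (SE), adjusted p = 0.0179), 1 of 9 genes against 16.4% of all genes. With the lysate as a block 4 genes were called, adding Ifitm3 (adjusted p = 0.0159), Isg15 (0.0321) and Ifit1 (0.0370), and the share of all genes in that fit is not given. This block pairs the libraries by preparation number. The replicate numbers in the labels pair the 2 inputs the other way round, so the added calls rest on an uncertain pairing. No overlap was seen for Irf7, Ifit1, Isg15 and Oasl2, which were lower (31.8% of all genes), and for Rsad2, which was higher in both coIP libraries (36.3%). Without input preparation 1 no gene was called, without input preparation 2 there were 2 and without coIP preparation 1 there were 4. In these 2 lysates Stat2 (log2 0.80 ± 0.15, adjusted p = 0.00187) and Jak1 (log2 0.66 ± 0.13, adjusted p = 0.00262) were also called higher in coIP. So was Itgam (log2 0.96 ± 0.16, adjusted p = 0.00105), against 15% of all genes, while Tyk2 was not (log2 0.43 ± 0.22, adjusted p = 0.149). Of the microglia markers Aif1, Tyrobp, C1qa, C1qb, Cx3cr1 and Tmem119 were called lower. The difference between the genotype labels in the coIP was not tested for any of these genes.

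**Figure D5:**
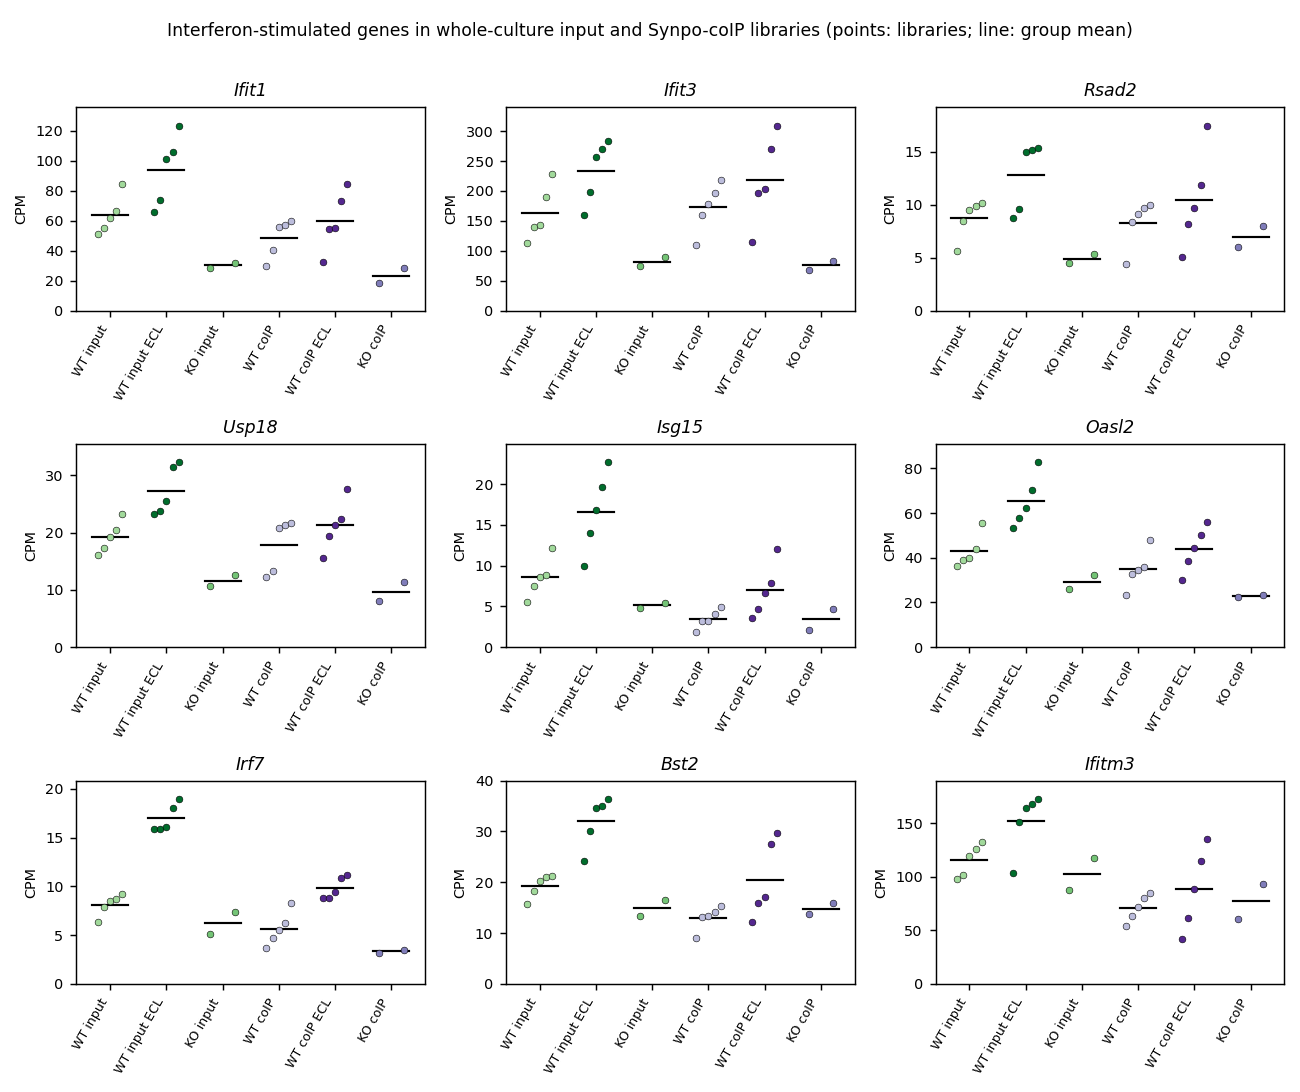
CPM (linear axis from 0) of each gene in whole-culture input and Synpo-coIP libraries, with 1 point per library and a line at the group mean. Lesioned Synpo+/+ inputs lie above the controls for Irf7 and Bst2, and Isg15 is lower in coIP than in input, with 1.85, 3.15, 3.21, 4.10 and 4.98 CPM in control coIP.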

How the data were processed

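Per the labels, polyA RNA of 63 libraries was sequenced, and the authors deposited raw counts per gene, made by trimming with cutadapt 3.5, alignment to GRCm38 (mm10) with STAR 2.7.8a and counting with featureCounts 2.0.1 without regard to strand. The versions come from the submitters' processing notes. Groups and replicate numbers were taken from the labels.

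From these counts, genes were filtered with filterByExpr, scaled by TMM and tested with edgeR 4.0.16 (quasi-likelihood test, two-sided, only the groups compared, 4 groups for differences of effects) in R 4.3.3. The Benjamini-Hochberg adjustment ran across every gene in a fit, with calls under 0.05, and SE is the absolute log2 fold change divided by the square root of F. DESeq2 1.42.0 was an alternative, beside RLE size factors, no filter, a mean normalized count over 300, all groups in one fit, removal of a gene length trend, the replicate number as a block and leaving out each library. The 20 fits were tested on simulated data with 200 genes changed 4-fold, of which 151 to 199 were recovered, with up to 20 false calls in a fit. All fitted changes of the 9 genes were smaller than 4-fold, and the recovery of such changes was not simulated. The members and lists were chosen with earlier results of these data known. The text names the 9 genes, the list genes of smallest p and the 10 most alike genes. Deviations of same-numbered coIP and input libraries were correlated (r 0.251 to 0.580 in control, 0.143 to 0.554 in lesioned Synpo+/+, 0.0807 in the lysates labelled synaptopodin-deficient) and share a lysate by the study's methods. In the labels of the last, preparation and replicate numbers of the inputs disagree, and the preparation number was used. A result for 1 signalling gene is not reported here.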

Additional observations from a re-analysis of the deposited data

Results flagged for a closer look

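Within groups of 4 to 10 libraries, 7 of 90 tests found a library far from its group by Dixon's criterion, where chance flags about 1 in 20. Lesioned DG replicate 4 of Synpo+/+ stood apart in 3 genes, with Ifit3 at 235 CPM (the other 6 at 95.7 to 141.8), Isg15 at 5.40 CPM (0.415 to 2.50) and Usp18 at 15.9 CPM (6.60 to 9.75). Usp18 was low in control DG replicate 3 of Synpo+/+, at 3.35 CPM against 6.97 to 7.62 in the others. Isg15 was high in lesioned DG replicate 1 labelled Synpo-/-, at 6.26 CPM against 1.65 to 2.42. Ifitm3 was high in control CA3 replicate 3 labelled Synpo-/-, at 361 CPM against 205 to 262, and Rsad2 was low in control coIP replicate 3 of Synpo+/+, at 4.41 CPM against 8.42 to 10.0.

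The effect of the lesion differed between DG and CA3 labelled Synpo-/- by the interaction test (edgeR) for Irf7, by 1.501 ± 0.31 (SE) on the log2 scale, and for Bst2, by 1.09 ± 0.28 (SE). The Bst2 call was fragile, since leaving out any one of 14 of the 23 libraries ended it.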

How the results depend on the processing

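Of the 180 values of a gene in a comparison, none changed direction past the threshold under any alternative. The number of genes called moved by over 1.5 times as follows, and the cause was not tested. Requiring a mean normalized count over 300 left 2 calls for the lesion in Synpo+/+ DG, 3 in input, 2 for the regions in controls labelled Synpo-/- and 0 when lesioned, 1 for the difference of lesion effects between these regions, 2 for coIP against input in control Synpo+/+ lysates and 0 in the lysates labelled synaptopodin-deficient. For the lesion in Synpo+/+ CA3 DESeq2 called 4 and no filter 7, and RLE size factors, all groups in one fit and removal of the length trend called 0. In input, all groups in one fit gave 3. For the genotype labels DESeq2 called 3 in control DG and 2 in control CA3, and no filter 1 and 6. No filter also gave 1 for the regions in Synpo+/+ controls, 2 in lesioned cultures labelled Synpo-/- and 2 for coIP against input in the lysates labelled synaptopodin-deficient.

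With the replicate number as a block, the count was 3 for the lesion in input, 8 for the genotype labels in control CA3, 1 in lesioned CA3, 0 for the regions in lesioned cultures labelled Synpo-/-, 1 for the difference of lesion effects between the regions with that label and 4 for coIP against input in the lysates labelled synaptopodin-deficient. Neither the labels nor the methods say that a regional number marks a shared culture or animal, and in no regional or lesion comparison were all same-numbered deviations correlated above 0.1. For DG against CA3 in controls labelled Synpo-/- all 6 correlations were positive (0.0617 to 0.539), 3 of them above 0.1, and 2 libraries correlated best with their own number, and the block called 3 genes against 4 without it, which lost Irf7. In Synpo+/+ controls both were negative (-0.308 to -0.189).

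Leaving out 1 library at a time gave 3 to 6 calls for the lesion in Synpo+/+ DG, 0 to 2 in Synpo+/+ CA3, 3 to 3 in DG labelled Synpo-/- and 2 to 7 in input, 0 to 2 for the genotype labels in control DG, 0 to 1 for the regions in Synpo+/+ controls, 2 to 4 in controls labelled Synpo-/- and 0 to 1 when lesioned, 1 to 2 for the difference of lesion effects between these regions, and for coIP against input 3 to 5 in control and 5 to 7 in lesioned Synpo+/+ lysates and 0 to 4 in the others. Where this left a group with 1 library, that library was taken to vary like the other group. Removing the length trend shifted the median of all genes by -0.14 in the lesion comparisons of Synpo+/+ DG and CA3. Counts of Isg15 and Irf7 limit their precision.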

Other observations

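The 2 inputs labelled synaptopodin-deficient carry no lesion label, so they entered no comparison with other inputs. Ifit1 was at 28.7 and 31.7 CPM in them, beside 51.2, 55.3, 61.6, 66.5 and 84.3 CPM in control and 65.9, 73.6, 101.3, 106 and 123 CPM in lesioned Synpo+/+ inputs. Ifit3 was at 73.7 and 89.2 CPM, Oasl2 at 26.2 and 32.3 CPM and Usp18 at 10.6 and 12.6 CPM. Among the control Synpo+/+ inputs these genes lay at 112 to 228, 36.3 to 55.4 and 16.1 to 23.2 CPM. Isg15, at 4.85 and 5.47 CPM, and Rsad2, at 4.46 and 5.37 CPM, also lay below every control input. Irf7 (5.09 and 7.35 CPM), Bst2 (13.3 and 16.4 CPM) and Ifitm3 (87.4 and 117 CPM) overlapped the control inputs. The 2 inputs had 42886994 and 47572131 total counts, against 20576235 to 26730691 in control Synpo+/+ inputs. How many of all genes lay apart in this way was not counted. The regional controls went the other way, since all 9 genes had higher means there with the Synpo-/- label in DG and in CA3.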
